A study of Mus musculus with 16 samples.

Results

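The genes described here carry the ACTH signal of the adrenal cortex from the cell surface to protein kinase A. They are 10 of the 54838 genes counted: the receptor gene Mc2r, its accessory protein genes Mrap and Mrap2, the kinase genes Prkaca, Prkacb, Prkar1a and Prkar2b, and the phosphodiesterase genes Pde8b, Pde2a and Pde4b. They were chosen by name, and each of the 10 symbols matched 1 Ensembl identifier in GENCODE M21. Bulk RNA sequencing was done on 16 adrenal samples, each from a different mouse. The animals were 4 weeks old and of mixed genetic background. There were 4 mice in each of 4 groups: control females, females with an Rspo1 gain of function (GOF), control males, and males with the Rspo1 GOF. R-spondin 1, the secreted product of Rspo1, amplifies WNT signals. The promoter and cell type that drive the GOF allele, and the alleles of the controls, are not given in the sources used here. In whole glands, fewer cells of a type and less RNA per cell cannot be told apart.

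ACTH from the pituitary binds MC2R, a melanocortin receptor that reaches the surface of adrenocortical cells only with its accessory protein MRAP. The receptor acts through the stimulatory G protein on adenylyl cyclases, and the cyclic AMP they make binds the regulatory subunits of protein kinase A, which then release the catalytic subunits. Phosphodiesterases break cyclic AMP down and so limit the signal. In the cortex this pathway drives glucocorticoid synthesis, and inherited or somatic defects in MC2R, MRAP, PRKACA, PRKAR1A and PDE8B are known in human adrenal disease.

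Promoter windows in the RefSeq set (build GRCm38.p6, from 250 bases before to 50 bases after each transcript start) were found for 8 of the 10 genes, 28 windows in all. The windows were searched on both strands for the cyclic AMP response element TGACGTCA (CRE), its half-site TGACG, which every full element also contains, the SF-1 motif AAGGTCA and the TCF/LEF motif CTTTGAT. A full CRE was found in 2 of the 28 windows, both of Prkar1a and overlapping at the same element, against 1.79% of the 32851 mouse promoter windows of the same length. A half-site was found in 8 of the 28 windows, which belong to 6 of the 8 genes, against 20.8% of the mouse windows. An SF-1 motif was found in 1 window, of Mrap2 (4.72% of the mouse windows), and a TCF/LEF motif in 0 of the 28 (3.73%). Windows of 1 gene can overlap, so these counts are descriptions. The bases before 1 start are shown for the catalytic subunit pair, for Prkar1a with the full element, and for Pde8b, which had the largest fold difference between the sexes among the 9 genes tested; capitals mark the motif matches, CGTCA being the half-site on the other strand. They lie at chr8:83972728-83972977 (Prkaca, plus strand), chr3:146812947-146813196 (Prkacb, minus strand), chr11:109650699-109650948 (Prkar1a, plus strand) and chr13:95250337-95250586 (Pde8b, minus strand), each written 5′ to 3′ along the gene.
Prkaca: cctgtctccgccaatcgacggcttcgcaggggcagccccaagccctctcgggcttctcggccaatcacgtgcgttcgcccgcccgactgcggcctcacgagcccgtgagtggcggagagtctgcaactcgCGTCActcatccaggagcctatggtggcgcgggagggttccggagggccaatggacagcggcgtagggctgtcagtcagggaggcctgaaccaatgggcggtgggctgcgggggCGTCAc
Prkacb: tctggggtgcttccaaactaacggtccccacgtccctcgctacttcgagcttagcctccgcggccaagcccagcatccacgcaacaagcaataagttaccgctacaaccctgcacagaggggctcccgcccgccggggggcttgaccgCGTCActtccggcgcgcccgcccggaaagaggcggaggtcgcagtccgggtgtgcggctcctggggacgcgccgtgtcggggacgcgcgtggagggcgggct
Prkar1a: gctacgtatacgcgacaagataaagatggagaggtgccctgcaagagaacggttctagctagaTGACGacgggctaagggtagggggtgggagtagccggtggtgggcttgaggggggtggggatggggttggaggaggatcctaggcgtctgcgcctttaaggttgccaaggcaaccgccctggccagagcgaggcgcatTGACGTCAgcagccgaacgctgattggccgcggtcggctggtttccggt
Pde8b: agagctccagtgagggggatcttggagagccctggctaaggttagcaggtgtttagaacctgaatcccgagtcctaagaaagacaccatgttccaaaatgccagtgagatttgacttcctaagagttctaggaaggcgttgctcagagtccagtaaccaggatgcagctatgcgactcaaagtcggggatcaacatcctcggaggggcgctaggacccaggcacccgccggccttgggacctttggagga
In these stretches the first base of the full element of Prkar1a lies at position -49 from the transcript start, and the half-sites of Prkaca begin at -120 and -6. The half-site of Prkacb begins at -102, and these letters were not in the bases shown for Pde8b. Another window of Pde8b, at a different transcript start, held a half-site that begins at position 39.

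Libraries held between 31275146 and 43003968 counts, and 18214 genes had enough counts to be tested. Levels are given as CPM, counts per 1000000 after scaling the library totals, and changes as log2 fold changes ± standard error (SE) from edgeR's quasi-likelihood test over all 16 libraries. A gene is called where its p-value, adjusted over all tested genes by the Benjamini-Hochberg method, is under 0.05. Rspo1 itself had 3.20 to 40.6 CPM in female controls and 354 to 532 CPM in female GOF, and 19.4 to 48.25 CPM in male controls and 535 to 972 CPM in male GOF, so that each GOF library was above each control of its sex. Markers of the cortical zones were present in each group, but not at equal levels. Of the 6 zona glomerulosa markers, 4 fell in female GOF and 6 in male GOF (median log2 differences over the list of -2.15 and -2.13), and each of the 6 capsule markers fell in both sexes (medians -2.04 and -1.98). Of the 4 zona fasciculata markers, 1 rose and 2 fell in female GOF, and 0 were called in male GOF (1 at an unadjusted p under 0.05). Each of the 3 X-zone markers, of the inner cortical layer of female mice, fell in female GOF, and 2 of the 3 fell in male GOF (medians -11.68 and -3.56). Their summed level was 5122 to 7545 CPM in female controls and at most 109.5 CPM in the other 3 groups. The part of these differences in the changes of the 10 genes was not tested. Male control 2 carried liver transcripts (8245 CPM summed over 7 markers, against at most 58.3 in the other 15 libraries), and female controls 1 and 3 carried kidney tubule transcripts (at least 141 CPM over 7 markers, against at most 2.17 in the other 14). Summed medulla markers were 4775 to 11460 CPM in the controls of both sexes and 197.5 to 883 CPM in GOF, and each of the 8 medulla markers fell in GOF adrenals of both sexes. Summed adipocyte markers were 1799 to 4533 CPM in controls and 371 to 925 CPM in GOF.

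Of the 10 genes, 9 could be tested. In females, GOF adrenals had 3 of the 9 called, Mrap, Prkaca and Pde4b, and each fell. That share has to be read against the 39.6% of all tested genes that were called in this comparison (20.6% lower and 19.0% higher). In males, 3 of the 9 were called, Mrap, Prkacb and Pde4b, and again each fell, where 36.9% of all tested genes were called (21.8% lower and 15.2% higher). The median log2 fold change of the 9 genes was 0.02 in females, against 0.05 over all tested genes, and -0.38 in males, against 0.01. Among controls, males and females differed in 2 of the 9 genes, Prkaca and Pde8b, both lower in males (23.4% of all tested genes were called, 9.89% lower and 13.5% higher in males). Among GOF adrenals, 4 differed: Mc2r, Prkar1a and Pde8b were lower and Prkar2b was higher in males (29.6% of all tested genes were called, 16.3% lower and 13.3% higher). Markers of several cell types also differed between these groups: 3 of 4 zona fasciculata, 6 of 7 endothelium, 5 of 6 capsule and 5 of 7 macrophage markers were higher in GOF males (medians over each list of 1.24, 0.63, 0.69 and 1.08 on the log2 scale), and 3 of 7 adipocyte markers were lower. In control males, each of the 3 X-zone markers was lower (median -10.06) and 6 of 7 liver markers were higher (median 6.31), male control 2 being the library with liver transcripts. Also, 4 of 6 capsule, 5 of 7 macrophage, 2 of 7 adipocyte, 2 of 6 zona glomerulosa, 1 of 4 zona fasciculata and 1 of 8 medulla markers were higher. Of the 7 endothelium markers 0 were called (0 also at an unadjusted p under 0.05, edgeR). The part of these cell types in the differences of the 9 genes was not tested. The 2 GOF comparisons use separate controls, while each control group also serves in a comparison of the sexes.

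**Figure D1:**
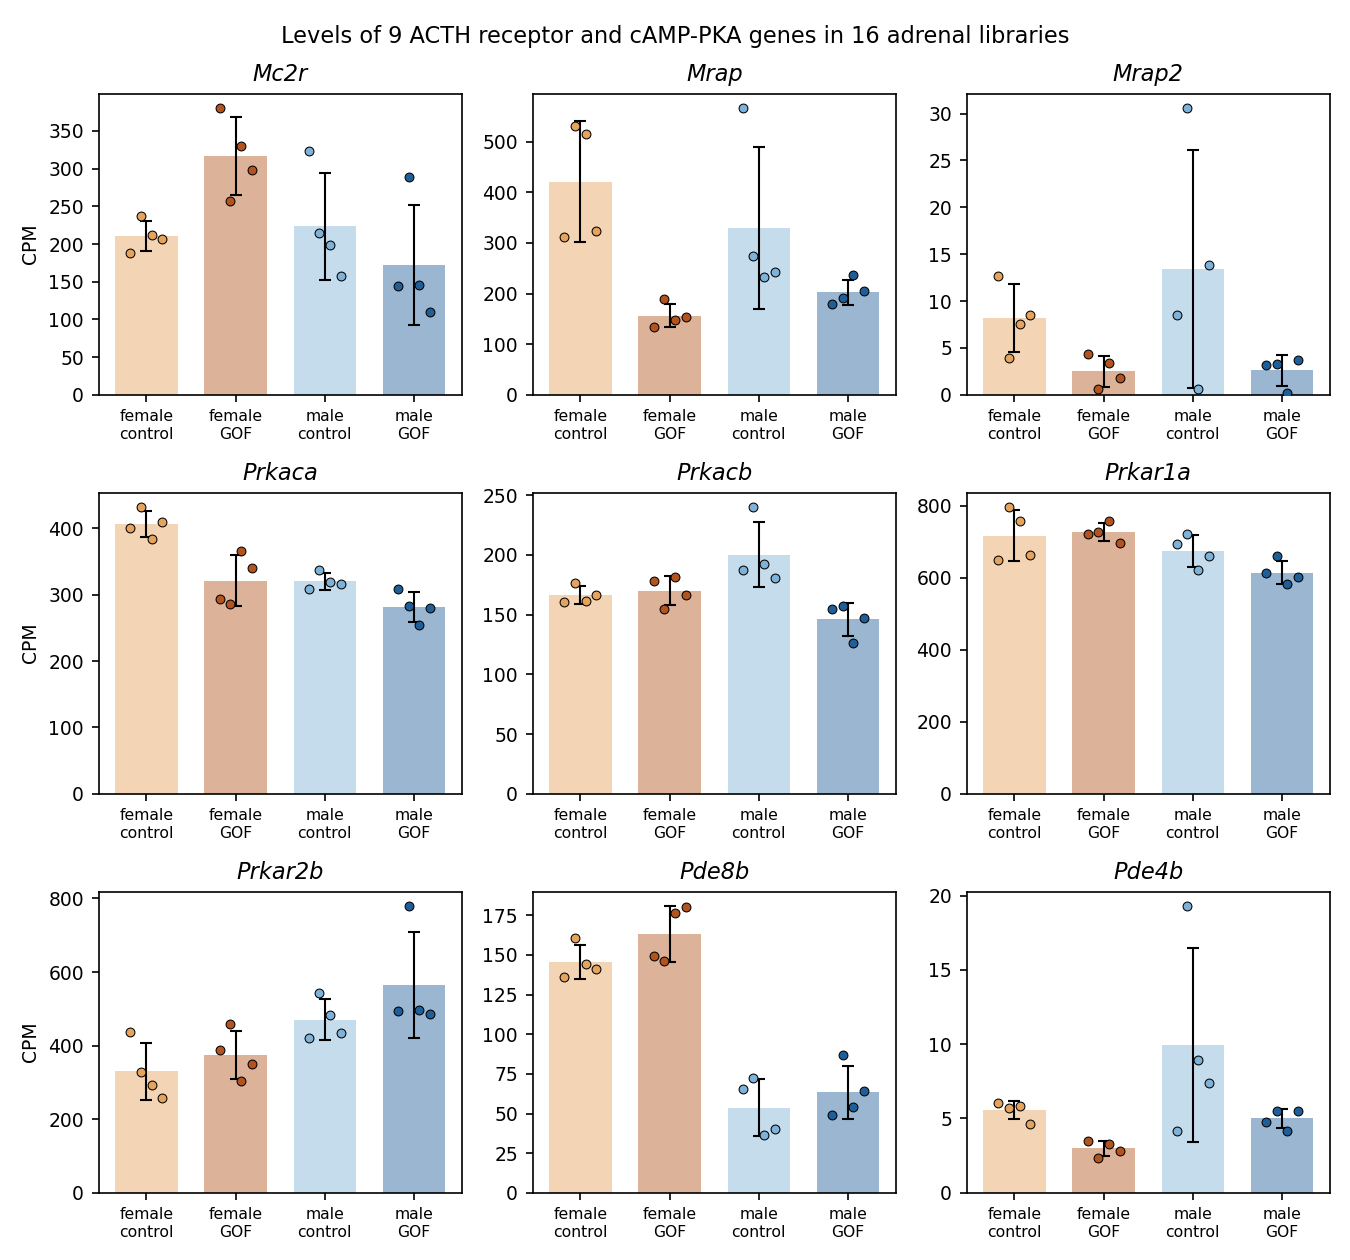
Levels of the 9 tested genes in CPM (y axis, from 0) in the 4 groups (x axis); each point is 1 library, the bar is the mean of 4 libraries and the error bar is the SD. Mrap sits at 134 to 189 CPM in female GOF against 312 to 532 CPM in female controls, and Pde8b is lower in both male groups (36.5 to 86.6 CPM) than in both female groups (136 to 180.5 CPM).

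**Figure D2:**
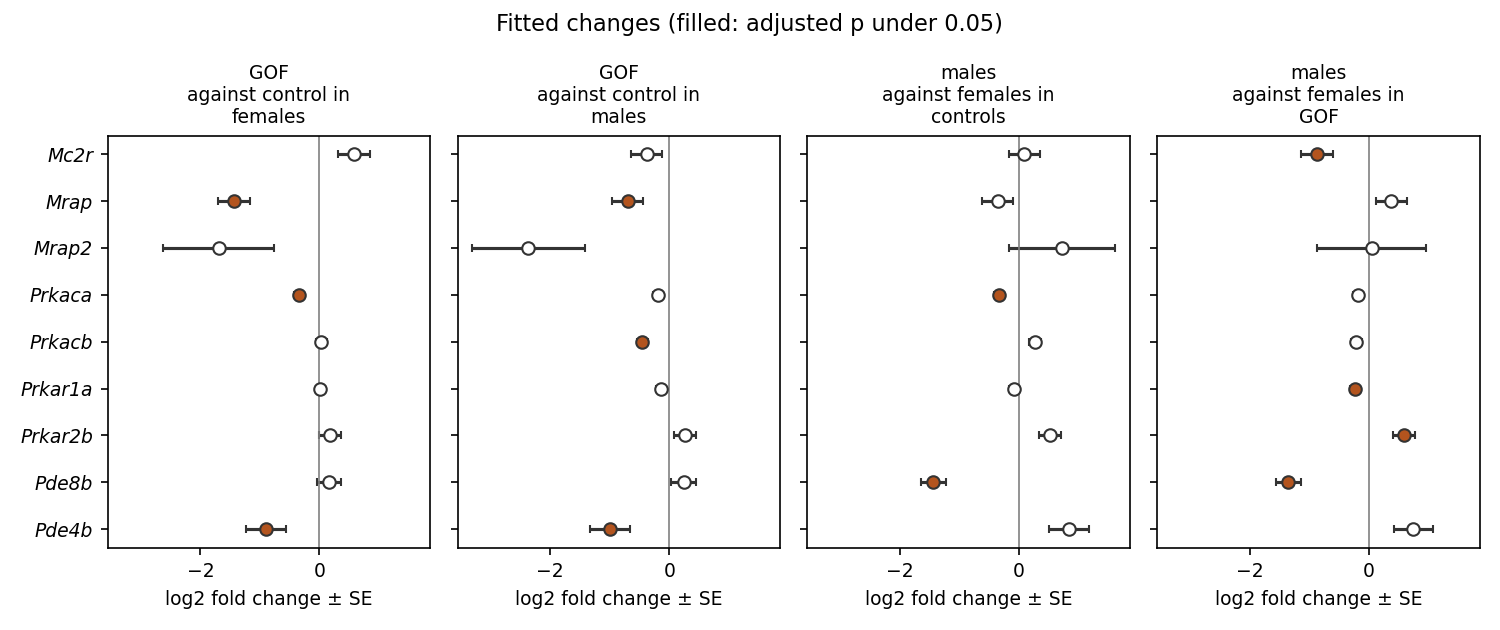
Log2 fold change ± SE (x axis) of the 9 tested genes (y axis) in the 4 comparisons, from edgeR's quasi-likelihood test; filled points had an adjusted p under 0.05. The filled points lie left of 0 for each gene called in the 2 GOF comparisons, and Pde8b is filled at -1.44 and -1.36 in the 2 comparisons of males with females.

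The receptor gene Mc2r (ENSMUSG00000045569, chr18:68406907-68429320, minus strand) was highest in female GOF adrenals. It was at 188.5, 237, 211 and 206.5 CPM in the 4 female controls and at 381, 257.5, 330.1 and 298 CPM in the 4 female GOF adrenals, so the 2 groups did not overlap. The log2 difference was 0.59 ± 0.26 (95% interval 0.07 to 1.10), which missed the threshold (adjusted p = 0.0919, edgeR's quasi-likelihood test). It passed in a fit of only the groups compared (adjusted p = 0.00544), with the animal-number range as covariate (0.0464), with limma on log2(FPKM + 1) (0.0485) or log2(FPKM + 0.1) (0.0455), and without male GOF 2 (0.0355). In males the values were 324, 214, 199 and 157 CPM in controls and 144, 289.5, 146 and 109 CPM in GOF. These 2 groups overlapped, with a log2 difference of -0.38 ± 0.26 (adjusted p = 0.281, edgeR). Male GOF 2 stood above the other 3 of its group, and without it the difference was -0.76 with an adjusted p of 0.0124.

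Between the sexes, Mc2r differed in GOF adrenals, where it was lower in males by a log2 difference of -0.88 ± 0.265 (edgeR's quasi-likelihood test, adjusted p = 0.0215). The groups overlapped through male GOF 2 (289.5 CPM, against 257.5 CPM in female GOF 2). The call was lost when any of female GOF 1 or 3 or male GOF 1, 3 or 4 was left out (log2 differences between -0.85 and -0.70, adjusted p from 0.0523 to 0.0697). It was also lost with no filter on low counts (adjusted p = 0.0632). Controls of the sexes had a log2 difference of 0.08 ± 0.26 (95% interval -0.43 to 0.60, adjusted p = 0.848). The difference between the GOF effects of the sexes, the interaction, was -0.96 ± 0.37 with an adjusted p of 0.164, and it passed without male GOF 2 (-1.31, adjusted p = 0.0169).

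Mrap (ENSMUSG00000039956, chr16:90738207-90749785, plus strand), whose protein escorts MC2R to the cell surface, had the lowest adjusted p of the 9 genes in females. It was at 312, 532, 516 and 324 CPM in female controls and at 134, 189, 147.5 and 154 CPM in female GOF. Each GOF library was below each control, and Mrap fell by 1.43 ± 0.27 on the log2 scale, to 0.371 of the control level (edgeR's quasi-likelihood test, adjusted p = 0.000749). In males it was at 567, 274, 233 and 242 CPM in controls and at 180, 191, 236 and 204 CPM in GOF, and the groups overlapped at 233 and 236 CPM. It fell by 0.70 ± 0.26 (adjusted p = 0.0488, edgeR), a call that rests on male control 1. Without that library the control mean was 249.7 instead of 329 CPM, and the log2 difference was -0.30 with an adjusted p of 0.222.

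The male Mrap call was also lost when any of female controls 3 and 4, female GOF 1, 3 and 4 or the 4 male GOF libraries was left out (log2 differences between -0.80 and -0.67, adjusted p from 0.051 to 0.0931). Of the 11 other alternatives it was kept in DESeq2 and lost in 10, for example under RLE factors (0.0582), upper-quartile factors (0.0737) and in the limma fits (0.123 to 0.199). The interaction for Mrap was 0.73 ± 0.37 (adjusted p = 0.283, edgeR's quasi-likelihood test) and 1.13 without male control 1 (adjusted p = 0.0236). Mrap is also a gene of fat cells, and of the 7 adipocyte markers 6 fell in female GOF and 7 in male GOF. In females the summed level of these markers was 1799 to 2239 CPM in controls and 473.5 to 925 CPM in GOF, in males 2352 to 4533 CPM and 371 to 462 CPM. In male controls 1, 2, 3 and 4 the adipocyte sums were 2352, 3301, 4533 and 2544 CPM, beside Mrap at 567, 274, 233 and 242 CPM. The part of fat cells in the fall of Mrap was not tested. Male control 1 also had the highest summed zona fasciculata markers (14880 CPM, against 7778 to 9489 in the other male controls), Akr1b7 (2643 CPM, against 780 to 1140) and Mc2r (324 CPM) of the male controls, and the part of these differences in its Mrap was not tested.

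Per length, Mrap stood above Mc2r in each female control, whereas in female GOF adrenals their ratio lay on both sides of 1. The authors' FPKM values (fragments scaled to gene length and library total) gave Mrap to Mc2r ratios of 3.01, 4.07, 4.43 and 2.85 in female controls and 0.641, 1.33, 0.812 and 0.941 in female GOF. The lowest control ratio was above the highest GOF ratio, and the group means were 3.59 ± 0.779 and 0.932 ± 0.294 (SD, n = 4). In males the ratios were 3.18, 2.33, 2.13 and 2.80 in controls and 2.26, 1.20, 2.94 and 3.39 in GOF, and the groups overlapped. The lowest male ratio came from male GOF 2, the library with the highest Mc2r of its group. The ratio is a description and carries no test.

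**Figure D3:**
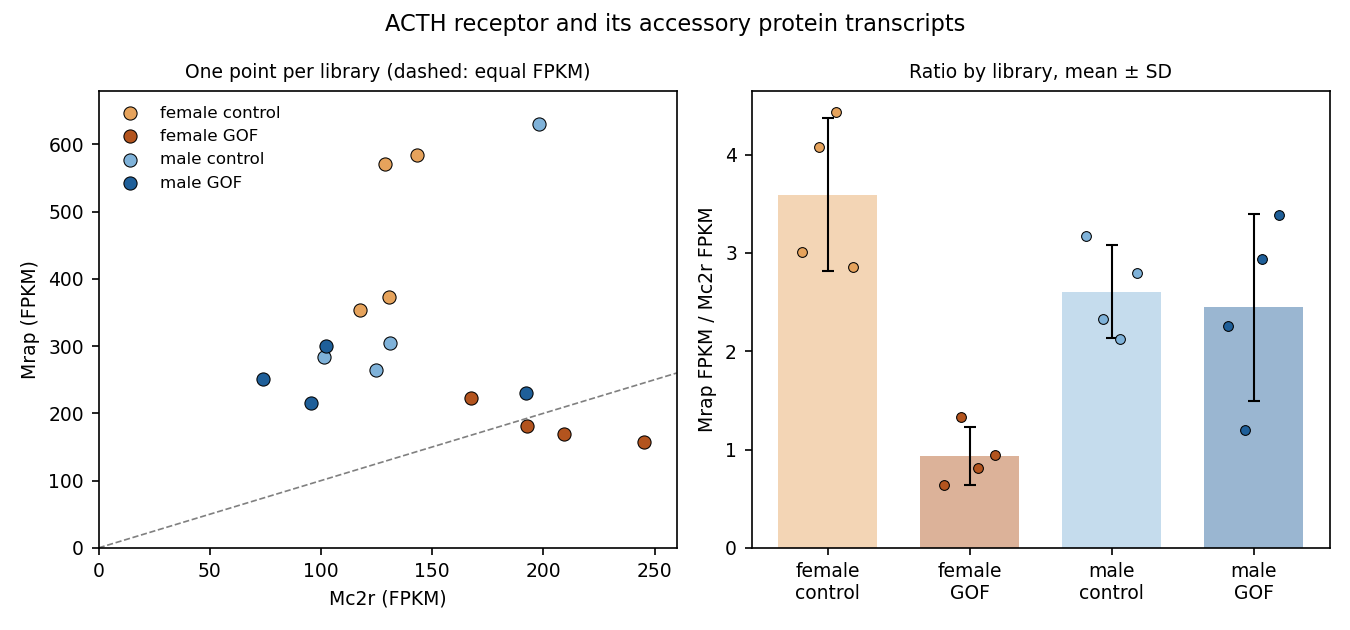
Left, Mrap against Mc2r in FPKM, 1 point per library coloured by group, with a dashed line where both are equal; right, their ratio by group (y axis from 0), with points for libraries, bars for means of 4 and error bars for the SD. Female GOF libraries lie on both sides of the line of equality (ratios 0.641 to 1.33), and the other 12 libraries lie above it, the nearest being male GOF 2 at 1.20.

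Mrap2 (ENSMUSG00000042761, chr9:87144306-87184045, plus strand) encodes a second melanocortin receptor accessory protein, known best from the brain. It was scarce and uneven, from 0.150 to 30.6 CPM over the 16 libraries. The 4 values were 12.7, 3.87, 7.51 and 8.48 CPM in female controls and 4.33, 0.618, 3.345 and 1.80 CPM in female GOF. Male controls had 8.55, 30.6, 0.587 and 13.9 CPM and male GOF had 3.18, 3.315, 0.150 and 3.75 CPM, so the groups overlapped in both sexes. The log2 differences between GOF and control were -1.69 ± 0.93 in females (adjusted p = 0.163) and -2.37 ± 0.945 in males (adjusted p = 0.0625, edgeR's quasi-likelihood test). The male difference passed in DESeq2 (adjusted p = 0.0386) and without male control 3, the library at 0.587 CPM (adjusted p = 0.0189), and the female one in a fit of only the groups compared (0.0378). The highest value was in male control 2, the library with liver transcripts. Without it the male difference was -1.57 (adjusted p = 0.207), and the male control mean went from 13.4 to 7.67 CPM.

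The 2 catalytic subunit genes of protein kinase A each fell in the GOF adrenals of 1 sex. Prkaca (ENSMUSG00000005469, chr8:83972993-83996443, plus strand) was at 400.3, 432.5, 385 and 409 CPM in female controls and at 293, 286, 366 and 340 CPM in female GOF. The groups did not overlap, and Prkaca fell by 0.34 ± 0.08 on the log2 scale, to 0.790 of control (edgeR's quasi-likelihood test, adjusted p = 0.00524). In males it was at 308, 338, 319 and 316 CPM in controls and at 309, 283, 254 and 280.2 CPM in GOF, a log2 difference of -0.19 ± 0.08 (95% interval -0.35 to -0.02, adjusted p = 0.0956) that passed without male GOF 1 (adjusted p = 0.0349). Control males lay below each control female, at 0.787 of the female level (log2 difference -0.345 ± 0.084, adjusted p = 0.00896, edgeR). That call was lost with the animal-number range as covariate (adjusted p = 0.0903). Female controls, the group with the highest mean of Prkaca, were also the group with high X-zone markers, and the part of the X-zone in these differences was not tested. The interaction for Prkaca was 0.15 ± 0.12 (adjusted p = 0.490), so a difference between the GOF effects of the sexes was not shown.

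Prkacb (ENSMUSG00000005034, chr3:146729574-146812990, minus strand), the other catalytic subunit, was highest in male controls. It was at 187.5, 240.3, 192 and 180.3 CPM in male controls and at 155, 157, 126.5 and 147 CPM in male GOF, with no overlap. It fell by 0.45 ± 0.09 on the log2 scale (edgeR's quasi-likelihood test, adjusted p = 0.00162), and the call held in each of the 27 alternatives, with log2 differences from -0.50 to -0.33. In females the values were 161, 177, 161 and 166 CPM in controls and 178, 155, 181 and 166 CPM in GOF, a log2 difference of 0.03 ± 0.09 (95% interval -0.15 to 0.22). The interaction was -0.48 ± 0.13 (edgeR's quasi-likelihood test, adjusted p = 0.0515). It passed in DESeq2 (adjusted p = 0.0264), in limma on log2(FPKM + 1) (0.0492) and log2(FPKM + 0.1) (0.0488), and without male control 1 (0.0456) or male control 4 (0.0447).

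Among controls, Prkacb was above each female library in each male library, with a log2 difference of 0.27 ± 0.09 (edgeR's quasi-likelihood test, adjusted p = 0.0504). This passed in the limma fits (0.0216 to 0.048) and without male control 1, male control 4 or male GOF 3 (0.0387 to 0.0442). The highest value again came from male control 2, and the difference was 0.17 without it (adjusted p = 0.181) and 0.12 without female controls 1 and 3 and male control 2 together (0.54). Per length, Prkaca made up most of the catalytic transcripts: it was 78.4% ± 0.299 (SD, n = 4) of the sum of both genes' FPKM in female controls, 73.6% ± 1.95 in female GOF, 70.5% ± 2.001 in male controls and 74.1% ± 0.972 in male GOF. Its share was lower in each female GOF library (71.0 to 75.2%) than in each female control (78.0 to 78.7%), and higher in each male GOF library (72.8 to 74.9%) than in each male control (67.6 to 72.3%).

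Of the regulatory subunits, which hold the catalytic ones inactive, Prkar1a (ENSMUSG00000020612, chr11:109649405-109669656, plus strand) had the highest mean per length of the 10 genes over the 16 libraries together, 399.7 FPKM, although Mrap was higher in female controls (470 against 405 FPKM) and in male control 1. It was also the steadiest of the 10. Its highest library had 1.37 times the CPM of its lowest. It was at 648.5, 796, 757 and 664 CPM in female controls, 722, 728, 758 and 696 CPM in female GOF, 694, 722, 620.3 and 659 CPM in male controls, and 612, 659, 582.7 and 600.4 CPM in male GOF. GOF and control overlapped in both sexes, with log2 differences of 0.02 ± 0.08 in females (95% interval -0.14 to 0.18) and -0.14 ± 0.08 in males (95% interval -0.29 to 0.02). In GOF adrenals each male lay below each female, a log2 difference of -0.24 ± 0.08 (edgeR's quasi-likelihood test, adjusted p = 0.0323). That call was lost without any of the 4 female GOF libraries or male GOF 1, 3 or 4 (log2 differences from -0.25 to -0.20, adjusted p from 0.0524 to 0.0989) and in 7 of the 11 other alternatives.

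Prkar2b (ENSMUSG00000002997, chr12:31958476-32061296, minus strand), the type II regulatory subunit gene also known from fat and brain, was higher in males than in females in GOF adrenals, by a call that rested on single libraries. In GOF adrenals it was at 388, 459, 304 and 351 CPM in females and at 494, 780, 496 and 485 CPM in males, with no overlap, and differed by 0.59 ± 0.185 on the log2 scale (edgeR's quasi-likelihood test, adjusted p = 0.0262). Male GOF 2 stood apart at 780 CPM. Without it the difference was 0.40 (adjusted p = 0.0868), and the call was also lost without female GOF 3 (0.50, adjusted p = 0.0813) or female GOF 4 (0.56, 0.0675) and with the animal-number range as covariate (0.49, 0.0875).

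Controls had 437, 329, 294 and 259 CPM of Prkar2b in females and 422, 543, 483 and 435 CPM in males, a log2 difference of 0.51 ± 0.185 (adjusted p = 0.0563, edgeR's quasi-likelihood test). The 2 groups overlapped through female control 1, and the difference passed without it (0.68, adjusted p = 0.017), without male GOF 2 (0.50, 0.032), in DESeq2 (0.0446) and in limma on log2(FPKM + 1) (0.036) or log2(FPKM + 0.1) (0.0353). The GOF comparisons gave log2 differences of 0.19 ± 0.18 in females (95% interval -0.17 to 0.55) and 0.26 ± 0.18 in males (95% interval -0.10 to 0.62). The groups overlapped in both sexes, and Prkar2b was not called. Adipocyte markers fell in GOF adrenals of both sexes, and their part in the levels of Prkar2b was not tested.

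The make-up of the regulatory transcripts differed between the sexes. Per length, Prkar1a was 65.9% ± 3.17 (SD, n = 4) of the 4 regulatory genes' FPKM in female controls and 67.7% ± 2.74 in female GOF, but 56.6% ± 3.805 in male controls and 56.7% ± 2.52 in male GOF. Each male library (at most 59.7%) was below each female one (at least 61.3%). The share of Prkar2b was 19.0% ± 4.57 in female controls, 21.8% ± 3.20 in female GOF, 24.6% ± 1.958 in male controls and 32.1% ± 4.74 in male GOF, and Prkar1b had its largest share in male controls (12.5% ± 3.90). That share was 18.3% in male control 2, the library with liver transcripts, and 10.1 to 11.05% in the other male controls. The ratio of catalytic to regulatory FPKM was 0.4435 ± 0.0306 in female controls, 0.377 ± 0.0458 in female GOF, 0.3535 ± 0.02055 in male controls and 0.325 ± 0.0318 in male GOF. These shares are descriptions without a test, and FPKM is a level of transcripts and not of protein.

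**Figure D4:**
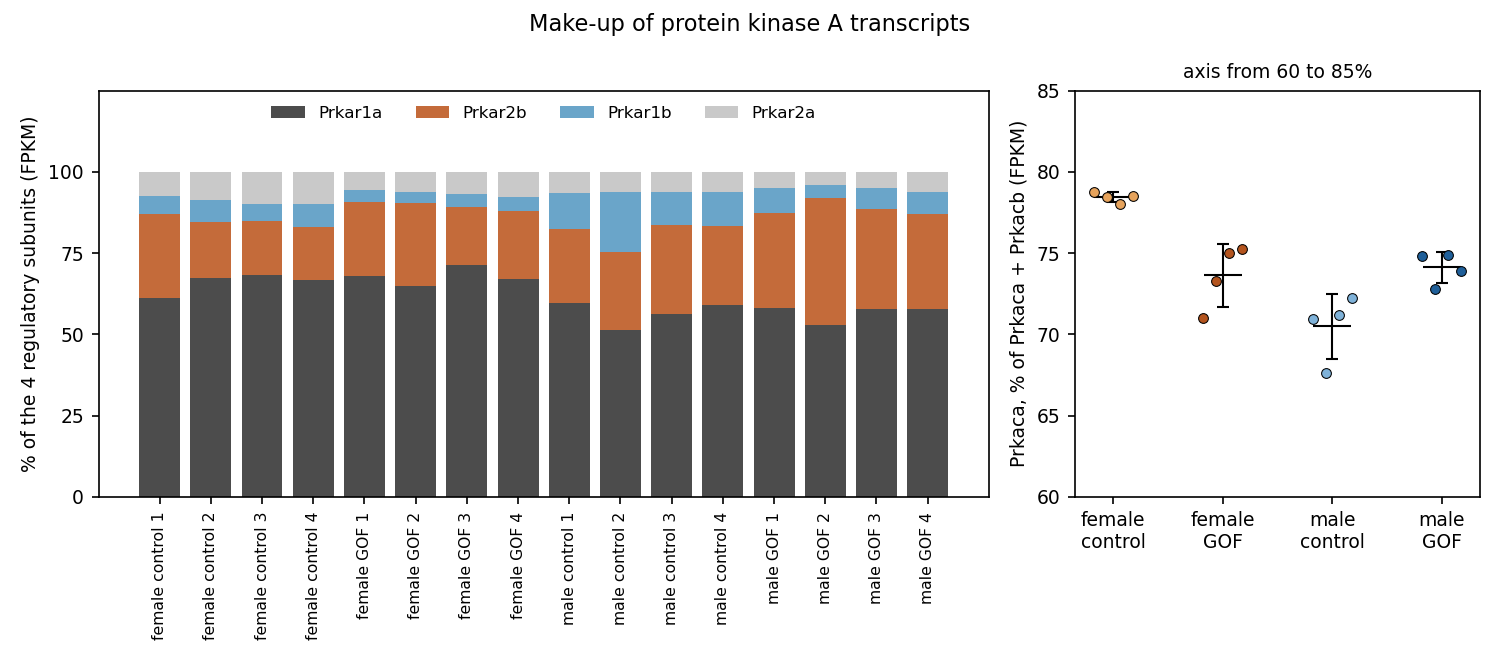
Left, the 4 regulatory subunit genes as percent of their summed FPKM (y axis) in each of the 16 libraries (x axis); right, Prkaca as percent of Prkaca plus Prkacb FPKM by group, with points for libraries, a line for the mean of 4 and error bars for the SD, on an axis from 60 to 85%. Prkar1a takes 51.3 to 59.7% in male libraries and 61.3 to 71.3% in female ones, and the Prkaca share is highest in female controls (78.0 to 78.7%).

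Among the phosphodiesterases, Pde8b (ENSMUSG00000021684, chr13:95024454-95250336, minus strand), a cyclic AMP-specific enzyme known from the adrenal cortex, had the largest fold difference between the sexes of the 9 tested genes in both genotypes. It was at 136, 161, 145 and 141 CPM in female controls and at 65.3, 72.3, 36.5 and 39.9 CPM in male controls. In GOF it was at 149, 146, 176.5 and 180.5 CPM in females and at 48.9, 86.6, 54.2 and 64.1 CPM in males. Each male library was below each female one, and Pde8b was lower in males by a log2 difference of -1.44 ± 0.21 in controls (0.368 of the female level, adjusted p = 0.000262) and of -1.36 ± 0.21 in GOF (0.389, adjusted p = 0.000285, edgeR's quasi-likelihood test). Both calls held in each of the 27 alternatives, with log2 differences from -1.68 to -1.30 and from -1.54 to -1.25.

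Between GOF and control, Pde8b overlapped in both sexes, with log2 differences of 0.16 ± 0.21 in females (95% interval -0.24 to 0.57) and 0.25 ± 0.21 in males (95% interval -0.16 to 0.66). The 3′ end of Pde8b shares 447 bases (7.60% of its exonic bases) with Gm48420, annotated on the other strand, which had 3 to 19 counts against 1180 to 6390 for Pde8b. Whether reads were counted by strand is not given in the sources used here. X-zone markers, as given above, were high in female controls alone of the 4 groups. The part of the X-zone in the levels of Pde8b was not tested.

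Pde4b (ENSMUSG00000028525, chr4:102087543-102607259, plus strand), a cyclic AMP-specific enzyme of many tissues and of immune cells, was low but fell in GOF adrenals of both sexes. It was at 6.04, 5.71, 5.85 and 4.64 CPM in female controls and at 3.48, 2.36, 3.26 and 2.83 CPM in female GOF, without overlap, and fell by 0.90 ± 0.33 on the log2 scale (edgeR's quasi-likelihood test, adjusted p = 0.0438). The call was lost without any of female controls 1, 2 and 3, the 4 female GOF libraries or male control 3 (log2 differences from -0.98 to -0.84, adjusted p from 0.0527 to 0.0936), and in 4 of the 11 other alternatives, of which limma on log2(FPKM + 1) gave a difference of -0.56 (adjusted p = 0.0861).

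In males Pde4b was at 4.185, 19.3, 8.93 and 7.37 CPM in controls and at 4.77, 5.515, 4.18 and 5.53 CPM in GOF, and the groups overlapped. It fell by 0.99 ± 0.33 (adjusted p = 0.0288, edgeR's quasi-likelihood test), a size that rests on male control 2, the library with liver transcripts and the highest Pde4b. Without it the difference was -0.45 with an adjusted p of 0.159, and the call was also lost without male GOF 1 (-0.99, 0.0542) or male GOF 3 (-0.93, 0.0739) and in 6 of the 11 other alternatives (adjusted p up to 0.193). Of the 7 macrophage markers, the immune markers measured, 1 was called higher in female GOF and 4 in male GOF. Their summed level was 103 to 224 CPM in female controls and 194 to 295 CPM in female GOF, which overlapped. In males it was 257 to 358 CPM in controls and 401.5 to 851 CPM in GOF. The part of immune cells in the levels of Pde4b was not tested. Males had higher Pde4b means than females, with log2 differences of 0.84 ± 0.33 in controls (adjusted p = 0.0779) and 0.75 ± 0.33 in GOF (adjusted p = 0.106). The GOF difference passed without male control 1 (0.0417) or 2 (0.0186), with only the groups compared (0.0186) and without female controls 1 and 3 and male control 2 together (0.0316), and the control difference passed without male control 1 (1.09, 0.0107) but was 0.30 without male control 2 (adjusted p = 0.409).

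Pde2a (ENSMUSG00000110195, chr7:101421691-101512827, plus strand), a phosphodiesterase that cyclic GMP stimulates, had 1 to 7 counts per library and was not tested. Its level cannot be read from these counts. A second gene model on the same strand, Gm45837 (chr7:101410886-101512819), shares 3955 of its 6149 exonic bases (64.3%) and had 0 or 1 counts. The part of this overlap in the low count was not tested.

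Ordered by mean FPKM over the 16 libraries, Prkar1a (399.7) was followed by Mrap (318), Prkaca (180.0), Prkar2b (160.4), Mc2r (147), Prkacb (62.2), Pde8b (51.1), Mrap2 (3.22) and Pde4b (2.93), with Pde2a left out of the order for its few counts. Neighbours in this order overlapped in their ranges over the libraries, except that the lowest Pde8b value (17.2 FPKM) was above the highest Mrap2 value (14.4 FPKM). The order over all libraries turned within groups. Mrap stood above Prkar1a in female controls (means of 470 and 405 FPKM), Mc2r above Mrap and Prkaca in female GOF (204, 183 and 176 FPKM), and Prkar2b above Prkaca in male GOF (218 and 161 FPKM). Mc2r was above Prkar2b and Pde8b above Prkacb in both female groups, and Pde4b was above Mrap2 in both GOF groups. In the interaction of sex and genotype, 0 of the 9 genes were called by edgeR's quasi-likelihood test, where 4.21% of all tested genes were. At an unadjusted p under 0.05 there were 2, Mc2r and Prkacb (20.2% of all tested genes), and DESeq2 called 1, Prkacb.

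Genes whose log2 CPM followed that of the receptor genes most closely over the 16 libraries were found among 13518 genes with a mean of at least 1 CPM. For Mc2r these were Nap1l4 (Pearson r = 0.92), Zkscan14 (0.90) and Cyp21a2-ps (0.90), the last a pseudogene whose reads can be shared with Cyp21a1, a steroid hydroxylase gene. For Mrap they were Crls1, the cardiolipin synthase gene (0.94), Romo1 (0.91) and Sar1b (0.91), and for Mrap2 they were Htr1b (0.78), Gsta4 (0.73) and Cflar (0.73). The 16 points share their libraries and include the 4 groups, so these values describe likeness only.

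Beyond these 10 genes, 82 genes of the pathway in 8 lists were followed, of which 78 were tested. In females 14 rose and 24 fell in GOF (48.7% called), and in males 8 rose and 22 fell (38.5%), beside the 39.6% and 36.9% of all tested genes. The median log2 fold change of the 78 genes was -0.20 in females and -0.14 in males. Among controls 22 were higher and 9 lower in males (39.7%, against 23.4% of all genes), and among GOF adrenals 20 were higher and 13 lower (42.3%, against 29.6%). These lists were chosen with earlier results known, and nothing is read from these shares beyond their values.

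**Figure D5:**
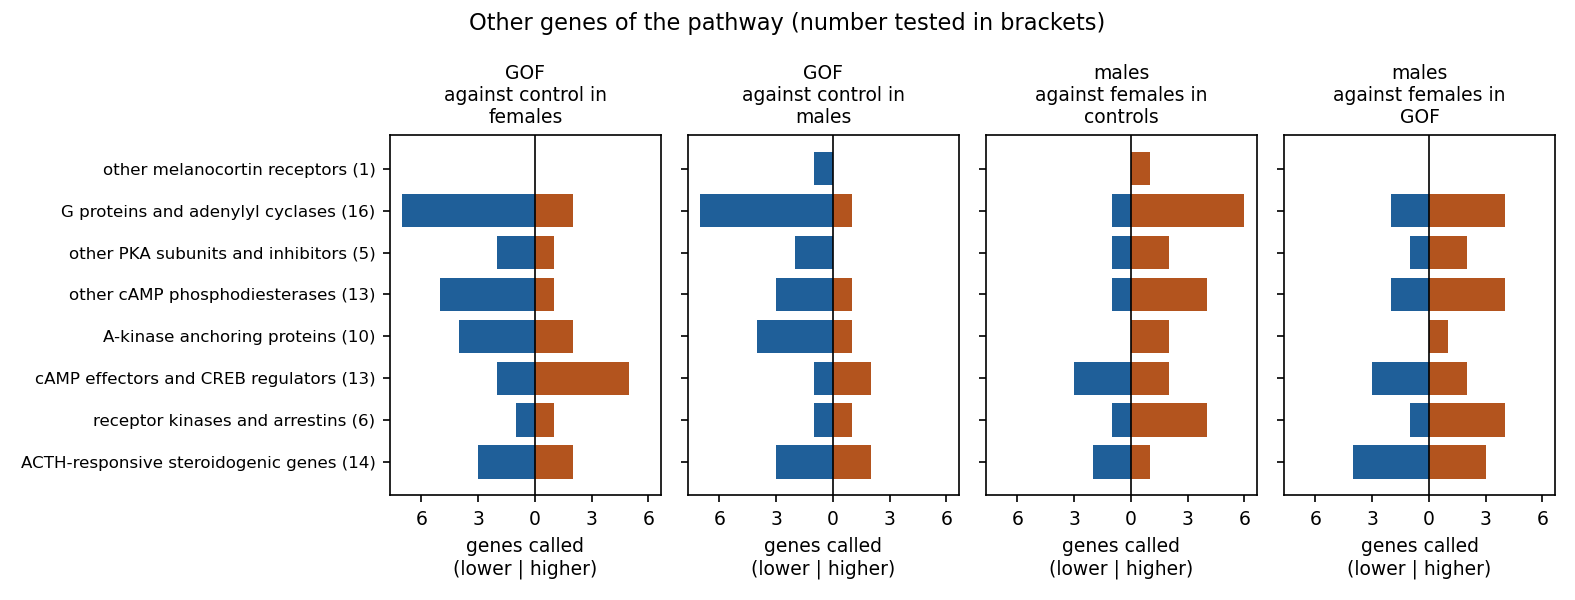
Number of genes called lower (left of 0, blue) and higher (right of 0, orange) in each of the 8 pathway lists (y axis, number tested in brackets) in the 4 comparisons, by edgeR's quasi-likelihood test at an adjusted p under 0.05. Of 16 G protein and adenylyl cyclase genes, 7 fell in GOF in each sex, and 6 were higher in control males than in control females.

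Of the 16 G protein and adenylyl cyclase genes, 2 rose and 7 fell in female GOF, and 1 rose and 7 fell in male GOF. Adcy1, a calcium-stimulated cyclase best known from neurons, fell most, by 2.89 ± 0.365 in females (13.6 ± 3.95 CPM in controls, 1.82 ± 0.9996 in GOF; SD, n = 4) and by 3.42 ± 0.37 in males (25.5 ± 6.28 and 2.38 ± 0.703 CPM). Adcy7, a cyclase abundant in blood cells, rose most, by 1.10 ± 0.20 in females and 1.08 ± 0.19 in males. Gnas, the gene of the stimulatory G protein that the receptor acts through, fell by 0.64 ± 0.13 in females and by 1.15 ± 0.13 in males (named after its values were seen). Counts are per gene, so the transcripts of Gnas were not told apart. Each of the 4 changes of Adcy1 and Adcy7 had groups that did not overlap and adjusted p of at most 0.000536 in edgeR's quasi-likelihood test. Summed medulla markers, given above, fell in the same GOF groups as Adcy1 and Gnas. The summed macrophage markers, given with Pde4b, were higher in the male GOF group in which Adcy7 rose. Their part in these changes was not tested.

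Of the 4 other melanocortin receptor genes 1 was tested, Mc5r, which is known from exocrine glands and fat. It fell in male GOF by 3.49 ± 0.64 (adjusted p = 0.000653, edgeR), from 1.79 ± 1.24 to 0.154 ± 0.110 CPM (SD, n = 4). Male control 1 held 3.63 CPM, and without it the control mean was 1.176 CPM and the log2 difference -2.89. In females the difference was -0.49 and was not called.

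Of the 5 other kinase subunit and inhibitor genes, 1 rose and 2 fell in females, and 2 fell in males. The regulatory subunit gene Prkar1b, expressed mostly in neural tissue, fell by 0.69 ± 0.23 in females (42.0 ± 7.20 CPM in controls, 26.0 ± 1.08 in GOF; adjusted p = 0.028) and by 1.24 ± 0.23 in males (97.3 ± 44.0 and 41.2 ± 7.805 CPM; SD, n = 4; adjusted p = 0.000767, edgeR's quasi-likelihood test). The female call was lost without female control 2 (-0.58), female control 4 (-0.66), female GOF 1 (-0.68) or female GOF 2 (-0.71), with adjusted p from 0.0502 to 0.0859, with the animal-number range as covariate (0.071) and in limma with no filter (0.0733). In males the highest value was 163 CPM in male control 2. Prkar2a fell by 0.45 ± 0.12 in both sexes (adjusted p = 0.00913 in females and 0.00998 in males), and the male call was lost in limma on log2(FPKM + 1) with no filter (-0.33, adjusted p = 0.0646). The kinase inhibitor gene Pkig rose by 0.24 ± 0.08 in females (adjusted p = 0.0221). The Pkig call was lost without any of female controls 2 and 4, female GOF 3 and 4 or the 4 male GOF libraries (log2 differences from 0.15 to 0.23, adjusted p from 0.054 to 0.151) and in 4 of the 11 other alternatives.

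Of the 13 other cyclic AMP phosphodiesterase genes, 1 rose and 5 fell in females, and 1 rose and 3 fell in males. Pde7a, a cyclic AMP-specific enzyme, was at 76.8 to 99.3 CPM in female controls and 327.5 to 438 CPM in female GOF, and rose by 2.15 ± 0.29 (adjusted p = 5.64e-05, edgeR's quasi-likelihood test). It was at 22.4 to 27.7 CPM in male controls and at 27.4, 95.02, 39.0 and 38.6 CPM in male GOF, and rose by 0.96 ± 0.28 (adjusted p = 0.015). Without male GOF 2, the library at 95.02 CPM, the male change was 0.43 (adjusted p = 0.0245). The male call was lost in a fit of only the groups compared (0.0622) and without female controls 1 and 3 and male control 2 together (0.0586). The female change was larger by 1.19 on the log2 scale, with an adjusted p of 0.104 for the interaction.

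Pde3a and Pde3b, enzymes that cyclic GMP inhibits, fell in both sexes. Pde3a fell by 2.03 ± 0.20 in females and by 2.12 ± 0.20 in males, and Pde3b by 1.43 ± 0.25 in females and by 2.96 ± 0.265 in males (edgeR's quasi-likelihood test, adjusted p from 1.6e-06 to 0.000487). Pde3b was at 34.45 to 58.3 CPM in female controls and 10.4 to 24.7 CPM in female GOF, and at 49.9 to 104 CPM in male controls and 8.83 to 10.9 CPM in male GOF. Its interaction of -1.54 (adjusted p = 0.0263) was the 1 called among the 78 genes (1.28%, against 4.21% of all tested genes), and it was lost without any of female controls 2 and 3, female GOF 3 or male GOF 1, 3 and 4 (adjusted p from 0.0525 to 0.0655), with no filter in edgeR (0.0658) or limma (0.0976), and without female controls 1 and 3 and male control 2 together (0.105). Pde3b is the phosphodiesterase of fat cells, and 4 of the 7 adipocyte markers also had a called interaction, each in the same direction; their part in it was not tested. Pde4d also fell in both sexes, and Pde1c and Pde7b in females (named after their values were seen).

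Of the 10 A-kinase anchoring protein genes tested, whose products place the kinase in the cell, 2 rose and 4 fell in females, and 1 rose and 4 fell in males. Akap6, an anchor best known from muscle and neurons, fell by 2.90 ± 0.585 in females (from 6.68 ± 2.17 to 0.887 ± 0.331 CPM; SD, n = 4; adjusted p = 0.00136) and fell by 4.48 ± 0.62 in males (from 21.5 ± 23.7 to 0.962 ± 0.2665 CPM; adjusted p = 5.97e-05, edgeR). Male control 2 held 56.9 CPM, and without it the male control mean was 9.70 CPM and the log2 difference -3.34. In limma on log2(FPKM + 1) the female difference was -0.60 and not called (adjusted p = 0.118). Akap8 rose by 0.69 ± 0.15 in males (adjusted p = 0.0028) and by 0.44 ± 0.15 in females (adjusted p = 0.0347). The female call was lost without any of female controls 2 and 3, female GOF 1, 2 and 4 or the 4 male GOF libraries (log2 differences from 0.33 to 0.42, adjusted p from 0.0521 to 0.141) and in 7 of the 11 other alternatives. Named after their values were seen, Akap9 rose and Akap1, Akap5 and Akap13 fell in females, and Akap5, Akap7 and Akap12 fell in males.

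Of the 13 genes of cyclic AMP effectors and CREB regulators, 5 rose and 2 fell in females, and 2 rose and 1 fell in males. Crtc3, a coactivator of CREB, rose by 0.90 ± 0.08 in females (63.2 ± 5.03 to 118 ± 4.88 CPM; SD, n = 4) and by 0.62 ± 0.08 in males (63.4 ± 3.42 to 97.3 ± 11.8 CPM). Sik2, a kinase that holds such coactivators in the cytoplasm and is also abundant in fat, fell by 1.11 ± 0.17 in females and by 1.76 ± 0.175 in males. These 4 changes had adjusted p of at most 0.000175 in edgeR's quasi-likelihood test and groups that did not overlap. Among the genes named after their values were seen, Crtc1 rose in both sexes, Crtc2, Crebbp and Ep300 rose in females and Sik3 fell in females. Creb1 was among the 6 genes of this list not called in females and the 10 not called in males.

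Of the 6 receptor kinase and arrestin genes, whose products switch receptors off, 1 rose and 1 fell in each sex. Grk3, a kinase of activated receptors, fell by 2.24 ± 0.29 in females (33.15 ± 4.55 to 6.99 ± 3.001 CPM; SD, n = 4) and by 2.57 ± 0.29 in males (65.5 ± 24.2 to 11.1 ± 1.62 CPM). Arrb2, the beta-arrestin 2 gene, rose by 0.73 ± 0.12 in females and by 0.58 ± 0.12 in males (edgeR's quasi-likelihood test, adjusted p at most 0.00188 over these 4 changes).

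Of 14 steroidogenic genes known to respond to ACTH, 2 rose and 3 fell in each sex. Hsd3b1, the main adrenal steroid dehydrogenase gene of its family, rose by 0.89 ± 0.21 in females, from 9482 ± 353.7 to 17610 ± 2440 CPM (SD, n = 4; adjusted p = 0.00348), and Nr5a1, the gene of the cortical master regulator SF-1, rose by 1.04 ± 0.22 in males, from 483 ± 59.1 to 989.9 ± 238 CPM (adjusted p = 0.00224, edgeR's quasi-likelihood test). Akr1b7, an aldo-keto reductase gene that ACTH induces in the fasciculata, fell by 1.66 ± 0.39 in females, from 841 ± 265 to 265 ± 106.5 CPM (adjusted p = 0.00391). In males its means were 1423 CPM in controls (1016 CPM without male control 1) and 735 CPM in GOF, and it was not called. Its interaction was 0.71 (adjusted p = 0.483, edgeR), so a difference between the GOF effects of the sexes was not shown. Lipe, hormone-sensitive lipase, which is also abundant in fat, fell by 1.85 ± 0.21 in males, from 193 ± 59.6 to 53.6 ± 12.2 CPM (adjusted p = 1.24e-05). Named after their values were seen, Star, the cholesterol carrier of steroid synthesis, fell by 0.78 ± 0.21 in females (adjusted p = 0.00877) and by 0.57 ± 0.21 in males (adjusted p = 0.0437), Nr5a1 also rose and Lipe also fell in females, and Hsd3b1 also rose in males. The genes of the first step and the last step of glucocorticoid synthesis, Cyp11a1 and Cyp11b1, were not called in either sex, with log2 differences from -0.11 to 0.40.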

How the data were processed

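RNA was measured in 16 adrenal libraries in 4 groups of 4, grouped by the labelled sex and genotype, and the replicate numbers follow accession order and pair nothing. Read counts per Ensembl gene were deposited as whole numbers and not normalized, per the file headers and values. The FPKM values deposited by the authors were used for levels per length; dividing counts by FPKM gave 1 length per gene, which lay within 1 base of the GENCODE M21 mean over transcripts for 97.8% of 34180 genes, though not for Mc2r (1562 against 1631 bases). The submitters' processing notes name Bowtie2 2.2.3, TopHat2 2.0.12, HTSeq 0.6.1 and DESeq 1.18.0. The genome build, the annotation and the use of strand are not given in the sources used here; symbols and coordinates come from GENCODE M21 (GRCm38), which held 54723 of the 54838 identifiers, and reads shared by overlapping genes may be lost or split.

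The test was edgeR's (4.0.16, R 4.3.3) robust quasi-likelihood F-test on the counts in a single model of the 16 libraries, with TMM factors and the filterByExpr filter, with Benjamini-Hochberg adjustment over 18214 genes and a threshold of 0.05. CPM uses the same factors, and correlations used log2 CPM with a prior count of 2. Of the 24 pairs of libraries within groups, the lowest chi-square per degree of freedom was 26.8, where sampling noise alone gives about 1. P-values compare the group differences with the spread between libraries of a group. Each library is from a different mouse, and this spread includes any carried-over tissue.

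The alternatives were DESeq2 1.42.0, RLE and upper-quartile factors, no filter, a minimum of 10 counts per library, a fit restricted to the 2 groups, limma 3.58.1 on log2(FPKM + 1) and log2(FPKM + 0.1) with a mean of at least 0.5 FPKM and on log2(FPKM + 1) without that filter, 3 ranges of the animal numbers in the titles used as covariate, every library omitted once, and female controls 1 and 3 with male control 2 left out together. The genes, the 8 pathway lists and the 10 marker lists (zona glomerulosa, zona fasciculata, X-zone, medulla, capsule, adipocyte, macrophage, endothelium, liver and kidney tubule) were chosen with earlier results of these data known. Beside the 10 genes, the text names for each pathway list the called gene with the largest and the smallest log2 fold change in each GOF comparison, if either group averaged at least 1 CPM, and the 3 genes most like Mc2r, Mrap and Mrap2 over the libraries; other named genes were chosen after their values were seen. Counts were simulated for the female GOF comparison, with 200 genes changed and 17901 tested. There, 58.6% of genes changed 2-fold and 88% of those changed 4-fold were recovered, and 3.95% of the calls were unchanged genes. In the data 39.6% of genes were called, a share on which the adjustment depends, so these figures do not give the recovery in the data. Python 3.11.15 (pandas 2.3.3, numpy 2.4.6, matplotlib 3.10.9) made the tables and plots.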

Additional observations from a re-analysis of the deposited data

Results flagged for a closer look

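A single library stood apart from the other 3 of its group, by Dixon's test at the 95% level, in 3 of the 40 groups of values examined; chance gives about 1 in 20. Mrap was at 566.7 CPM in male control 1, where the next highest male control had 274.4 CPM. Mrap2 was at 0.1502 CPM in male GOF 3, where the next lowest had 3.181 CPM. Prkar2b was at 779.9 CPM in male GOF 2, where the next highest had 495.9 CPM. The same library had the highest Mc2r (289.5 CPM), Pde8b (86.6 CPM) and Pde7a (95.02 CPM) of the male GOF group. The cause was not tested.

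The GOF effect on Pde3b differed between the sexes by a test of the difference itself: the interaction was -1.54 on the log2 scale (edgeR's quasi-likelihood test, adjusted p = 0.0263), with a fall of 1.43 in females and of 2.96 in males. Of the 28 genes looked at for such a difference, this was the 1 called. The call was lost in 9 of 26 alternatives, 6 of them with 1 library left out. Of the 7 adipocyte markers 4 also had a called interaction in the same direction, and their part was not tested.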

How the results depend on the processing

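Over the 45 results of the 9 tested genes in 5 comparisons and up to 27 alternatives, 1201 values were recomputed; 1051 kept their direction and their side of the threshold, 66 lost a call, 36 gained one and 48 changed sign, the last for results that were not called. Mrap and Prkaca in females, Prkacb in males and Pde8b between the sexes kept their calls in each alternative. The number of the 9 genes called in female GOF was 5 with only the groups compared (6631 of 16834 over all genes), and 2 to 4 with 1 library left out. In male GOF it was 1 with only the groups compared, with the animal number range as a covariate, in the 3 limma fits, and without female controls 1 and 3 and male control 2 together, and 1 to 4 with 1 library left out. Between control sexes it was 1 with the covariate and 4 in limma on log2(FPKM + 1) and log2(FPKM + 0.1), and 2 to 5 with 1 library left out. Those limma fits called 4150 and 3934 of 15831 over all genes. Between GOF sexes it was 2 with no filter and 2 with the covariate, and 1 to 6 with 1 library left out. Over all genes, 4337 of 34196 were called with no filter and 3981 of 18214 with the covariate, against 5394 of 18214 in the main fit. For the interaction it was 1 in limma on log2(FPKM + 1) and log2(FPKM + 0.1) and 1 in DESeq2, and 0 to 2 with 1 library left out. Of the 78 other pathway genes, 31 were called between control sexes, but 11 with the covariate and 13 without the 3 libraries together, while calls over all genes went from 4267 to 1947 and 1648. The interaction had 1, but 2 with upper-quartile factors, 5 in DESeq2, 0 with no filter in edgeR or limma and 0 without the 3 libraries together, and 0 to 5 with 1 library left out. Over all genes the interaction had 766 calls, 1466 in DESeq2, 408 and 407 with no filter in edgeR and limma, and 175 without the 3 libraries together. For male GOF the calls over all genes were 6725, and 5549 with only the groups compared, 6156 with the covariate and 4872 without the 3 libraries together. In the limma fits they did not fall: 6836 and 6839 of 15831 genes on log2(FPKM + 1) and log2(FPKM + 0.1), and 7317 of 34196 with no filter.

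Sign changes were these. Prkacb in females was -0.04 with at least 10 counts in every library and -0.01 without the 3 libraries together, and -0.04 to 0.06 with 1 library left out. Prkar1a in females was -0.0026 with RLE factors, -0.01 with upper-quartile factors, with only the groups compared and without the 3 libraries together, -0.0049 with no filter, -0.05 with at least 10 counts, and -0.0028 in DESeq2, and -0.04 to 0.08 with 1 library left out. Between control sexes, Mrap2 was -0.04 in limma on log2(FPKM + 0.1) and -0.09 to 1.12 with 1 library left out, Prkar1a was 0.0049 with the covariate, and Mc2r was -0.15 to 0.22 with 1 library left out. Between GOF sexes, Mrap2 was -0.22 with the covariate, -0.12 in limma on log2(FPKM + 0.1), and -0.27 to 0.45 with 1 library left out. For the interaction, Prkar2b was -0.02 without the 3 libraries together, and Pde4b was 0.03 with upper-quartile factors, 0.02 in limma on log2(FPKM + 1) with and without the filter, 0.16 on log2(FPKM + 0.1) and 0.34 without the 3 libraries together. With 1 library left out, the interaction ranged from -1.07 to 0.13 for Mrap2, from -0.10 to 0.21 for Prkar2b, from -0.08 to 0.26 for Pde8b and from -0.35 to 0.45 for Pde4b. The cause was not tested.

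The 3 ranges of animal numbers are not named as a batch in the labels, and 1 range holds females only. Limma on log2(FPKM + 0.1) moved the median of all genes by 0.11 in males, so its changes are to be read against 0.12, and upper-quartile factors moved that of the interaction by 0.10. Counts per library ran from 6 to 1046 for Mrap2 and from 99 to 660 for Pde4b, the lowest of the tested genes. No paired analysis was possible because the labels give no replicate numbers.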

Other observations

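Several pathway genes outside the 10 differed between the sexes in both genotypes; these genes were chosen after their values were seen. Pde7a was lower in males by a log2 difference of -1.74 ± 0.285 in controls (85.4 ± 9.72 CPM in females, 25.6 ± 2.27 in males; SD, n = 4) and of -2.92 ± 0.295 in GOF (379.5 ± 51.0 and 50.02 ± 30.5 CPM), with adjusted p of 0.000669 and 1.07e-05 in edgeR's quasi-likelihood test. Adcy7 was higher in males by 1.01 ± 0.195 in controls and 0.99 ± 0.19 in GOF (adjusted p = 0.00201 and 0.00147). Of the 7 macrophage markers, 5 were higher in males in each of these comparisons. Of the 6 receptor kinase and arrestin genes, 4 were higher and 1 was lower in males, again in both genotypes, and of the 16 G protein and adenylyl cyclase genes 6 were higher and 1 was lower in control males, and 4 were higher and 2 were lower in GOF males. Over all tested genes, 13.5% were higher and 9.89% lower in control males, and 13.3% were higher and 16.3% lower in GOF males. These lists were singled out after their values were seen, and their counts are descriptions.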
